A study of Mus musculus with 30 samples.

Results

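S100a8, S100a9, S100a4, S100a6, S100a10 and S100a11 encode small calcium-binding proteins of the S100 family, and their RNA was followed across 8 mouse organs in health and in collagen-induced arthritis (CIA). The 6 genes were taken by name from the 23013 gene rows of the pilot single-cell matrix, in which 15 rows are S100 genes. S100a10 and S100a11 were above 0 in all 30 libraries, S100a8, S100a4 and S100a6 in 29 and S100a9 in 27. The genes were chosen by their values in these data, namely their level in each library across organs and states and in single barcodes, so these values are given as descriptions and carry no test. Single cells had been captured on barcoded beads by Seq-Well, a microwell method, and 8282 barcodes in 30 libraries were analysed. All 8 mice were male DBA1/J mice of 8 to 12 weeks. Healthy mice were H3, H4, H6 and H7, which received phosphate-buffered saline and had an arthritis score of 0. The 4 CIA mice were S1, S2, S6 and S7, which received 100 µg bovine collagen II in complete Freund's adjuvant and a boost of 100 µg in incomplete adjuvant on day 20. Their scores were 8 in S1 and S2, 3 to 4 in S6 and 3 in S7. The controls had no adjuvant, so collagen and adjuvant cannot be told apart. Blood held all 4 healthy mice with S2, S6 and S7, and lymph node all 4 healthy mice with S1, S2 and S7. The joint compared H3 with S1, and lung, muscle, skin, spleen and thymus each compared H6 with S1. Blood cells were mononuclear cells from a density gradient, a step that removes most granulocytes, and red cells were lysed.

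S100 proteins bind calcium through a pair of EF-hand loops and mostly act as dimers. S100a8 and S100a9 pair as calprotectin, which fills the cytosol of neutrophils, is also made by monocytes, withholds zinc and manganese from microbes, and acts as an alarmin on Tlr4 once released. In arthritis calprotectin is known as a marker of inflamed joints. S100a4 and S100a6 act on the cytoskeleton and on growth in motile and mesenchymal cells. S100a10 differs from the others in that it no longer binds calcium and forms a tetramer with annexin A2, whereas S100a11 binds annexin A1.

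All 6 genes lie within 2.96 Mb of chromosome 3 in GRCm38, the mouse build that the study's methods name. S100a4 spans chr3:90603770-90606045, S100a6 chr3:90612894-90614414, S100a8 chr3:90669071-90670034 and S100a9 chr3:90692630-90695721. S100a11 spans chr3:93520496-93526288 and S100a10 chr3:93555117-93564645. S100a8 and S100a9 are neighbors in opposite orientation with 22.6 kb between them. The starts of the 3 members that hold a TATAAA, the core letters of a TATA box, are shown because S100a8 and S100a9 moved together in the libraries described next. Each is read 5′ to 3′ on the strand of its gene from RefSeq, build GRCm38.p6, with TATAAA in capitals.
S100a8: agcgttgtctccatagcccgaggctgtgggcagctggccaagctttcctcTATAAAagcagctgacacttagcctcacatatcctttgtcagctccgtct
S100a9: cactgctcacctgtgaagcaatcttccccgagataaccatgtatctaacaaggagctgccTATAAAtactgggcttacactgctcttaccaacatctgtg
S100a4: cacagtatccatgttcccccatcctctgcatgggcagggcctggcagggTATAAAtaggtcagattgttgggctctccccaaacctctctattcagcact
The S100a8 stretch is chr3:90668991-90669090 on the plus strand, the S100a9 stretch chr3:90695682-90695781 on the minus strand and the S100a4 stretch chr3:90603690-90603789 on the plus strand. With the annotated start as position 1, TATAAA began at position -30 in S100a8, at position -31 in S100a4 and at position 1 in S100a9. The RefSeq table held 5 of the 6 members: the windows of S100a6 and S100a11 had no TATAAA on either strand, and S100a10 is named only. Of 32851 promoter windows of 300 bases, 13.6% held TATAAA on either strand and 1.99% held it on the gene strand with a start 40 to 20 bases before position 1. The looser letters TTNNGNAA, which fit many C/EBP sites, were met at position -117 of S100a8 and, on the other strand, at positions -236 and -130 of S100a9, and in no other member. They were present in 40.7% of all windows, and no match overlapped a TATAAA.

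The deposited values are sums over similar cells (12 neighbors), so they are called units here rather than counts, and levels are units per 1000000 units of a library (UPM). Libraries held 27 to 934 barcodes and 217494 to 7886790 units. Neighbors often carried the same profile: the 8282 barcodes held 4590 distinct profiles, and the healthy blood library of H3 held 7 among its 27 barcodes. Marker genes of the labelled tissue were present with 9 of 9 keratinocyte genes in both skin libraries and 6 of 6 thymocyte genes in both thymus libraries, but with 5 of 5 lung epithelium genes in healthy and 2 of 5 in CIA lung, and with 1 to 5 of 5 cartilage and bone genes in the joint. The healthy muscle library held 3 of 7 skeletal muscle markers at a sum of 69.3 UPM against 4654 UPM in the CIA muscle library. Library titles end in CIA or 2CIA, a suffix the labels do not explain. Wherever H6 was set against S1 the former suffix goes with health and the latter with CIA, so in those 5 organs suffix and state cannot be told apart. In blood all 3 CIA libraries carry 2CIA while H6 and H7 carry CIA alone, so they are partly confounded there. In lymph node S1 and S2 carry 2CIA alone and H6 and H7 CIA alone, so suffix and state are partly confounded there too. In 8 libraries, 13 barcode sequences recurred across libraries in 40 barcodes. Without them S100a8 was 14894 UPM in place of 14046 UPM in CIA lung and 2955 UPM in place of 2779 UPM in healthy spleen, where most of them lay.

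S100a8 and S100a9 spanned the widest range of the 6 genes, from 0 to 84868 UPM for S100a8 and from 0 to 32728 UPM for S100a9, and were highest in CIA joint, CIA spleen and healthy muscle. In the joint S100a8 was 32212 UPM in healthy mouse H3, and 84868 UPM and 60083 UPM in the libraries of CIA mouse S1 with the suffixes 2CIA and CIA. S100a9 was 17653 UPM in the healthy joint and 32728 UPM and 17577 UPM in the same CIA libraries. Both CIA joint libraries thus lay above the healthy joint for S100a8, while for S100a9 one lay above it and the other level with it. Summed over both libraries the joint of S1 held 2.58 times the S100a8 and 1.79 times the S100a9 of the healthy joint. With each distinct profile counted once these ratios were 5.48 and 3.98, and S100a9 in the library with the suffix CIA alone gave 0.996. Neutrophil markers, a list of 13 genes without S100 members, gave a sum of 13897 UPM in the joint of H3, and sums of 10419 UPM and 18885 UPM in that of S1.

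The spleen had the highest CIA to healthy ratio of S100a9 among the 5 organs with 1 mouse per state and a value above 0 in both libraries. S100a8 was 2779 UPM in the healthy spleen and 60461 UPM in the CIA spleen, a ratio of 21.8. S100a9 went from 980 UPM to 27695 UPM, a ratio of 28.3. The sum of the neutrophil markers was 757 UPM with 9 of 13 above 0 in the healthy spleen and 12078 UPM with all 13 above 0 in the CIA spleen. Erythroid markers went from 589 UPM to 92579 UPM and monocyte markers from 323 UPM to 1174 UPM in the same libraries. The part of these cells in the difference was not tested. When each distinct profile was counted once, the ratios were 11.3 for S100a8 and 14.3 for S100a9.

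In lung, S100a8 was 274 UPM in the healthy and 14046 UPM in the CIA library, a ratio of 51.2. S100a9 was 193 UPM and 2572 UPM there, a ratio of 13.4, so that the CIA lung held 5.46 units of S100a8 for each unit of S100a9. Neutrophil markers summed to 29.3 UPM and 1048 UPM and monocyte markers, a list of 7 genes, to 180 UPM and 2102 UPM in the same libraries. Markers of lung epithelium went the other way, from 22100 UPM to 2372 UPM.

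Muscle was the one organ with more S100a8 and S100a9 in health. S100a8 was 59333 UPM in the healthy and 14030 UPM in the CIA library, 4.23 times higher in health, and S100a9 was 26899 UPM and 3179 UPM, 8.46 times higher in health. The sum of the neutrophil markers was 22237 UPM in the healthy and 1676 UPM in the CIA muscle, whereas fibroblast markers were 517 UPM and 13324 UPM. The libraries held 421 and 54 barcodes. What part the difference in captured cells has in these values was not tested.

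Thymus and skin held little of either gene. In thymus S100a8 was 89.8 UPM in the healthy and 1015 UPM in the CIA library and S100a9 was 68.1 UPM and 405 UPM, with neutrophil markers at 6.59 UPM and 218 UPM. The thymus ratios of 11.3 and 5.95 became 7.17 and 3.69 with distinct profiles counted once. In skin S100a8 was 11.5 UPM and 91.6 UPM, and S100a9 was listed at 0 in the healthy and was 9.16 UPM in the CIA library. Skin was the only organ in which both libraries stayed under 100 UPM for both genes.

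**Figure D1:**
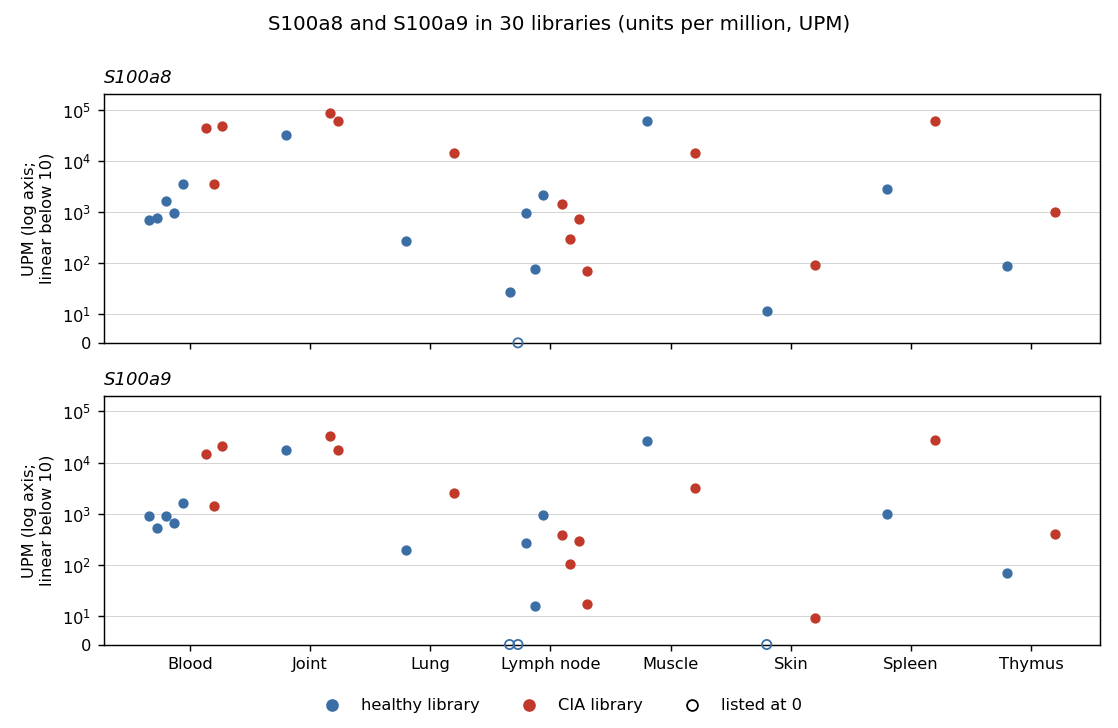
S100a8 and S100a9 in UPM (log axis, linear below 10) for each of the 30 libraries, by organ, with healthy libraries in blue, CIA libraries in red and open circles for a value of 0. The CIA point lies above the healthy point in lung, skin, spleen and thymus, below it in muscle, and in blood S2 and S7 stand at 43214 and 49101 UPM for S100a8 while S6 at 3553 UPM is level with the highest healthy library at 3550 UPM.

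Blood had several mice per state. Healthy S100a8 was 694 UPM in H3, 1486 UPM in H4, 940 UPM in H6 and 3550 UPM in H7. In the CIA mice it was 43214 UPM in S2, 3553 UPM in S6 and 49101 UPM in S7. S2 and S7 thus stood more than 10 times above every healthy mouse, and S6 passed H7 by only a few UPM. The order did not follow the score: S7, with a score of 3, was highest, S2, with 8, was next, and S6, with 3 to 4, was lowest.

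S100a9 in healthy blood was 897 UPM in H3, 832 UPM in H4, 651 UPM in H6 and 1604 UPM in H7. It was 14691 UPM in S2, 1411 UPM in S6 and 21150 UPM in S7. The groups overlapped through S6, which lay under H7.

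On the log2 scale of the fit, described under the lists of partner genes, CIA minus healthy blood was 3.36 (SE 0.85) for S100a8 and 2.53 (SE 0.75) for S100a9, with 4 healthy and 3 CIA mice. The median over all 4704 genes fitted in blood was -0.55, and -0.10 when libraries were scaled by their total alone. Without S6 the differences were 4.95 and 4.10, and without S2 they were 2.45 and 1.72. From the 2CIA libraries alone they were 4.66 and 3.37. Neutrophil markers were 56.2 to 316 UPM in the healthy blood libraries and 271 to 6645 UPM in the CIA ones. In S6 a single one of the 13 markers was above 0, Retnlg, and Ly6g was listed at 0 in every healthy blood library and in S6. Monocyte markers were 123 to 378 UPM in healthy and 983 to 3505 UPM in CIA blood. Hemoglobin rows took 3.75% to 58.8% of the units of a blood library.

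Lymph node gave no separation. Healthy S100a8 was 28.0 UPM in H3, 587 UPM in H4, 77.1 UPM in H6 and 2140 UPM in H7. It was 1460 UPM in S1, 301 UPM in S2 and 457 UPM in S7, all inside the healthy range. S100a9 was listed at 0 in H3, was 164 UPM in H4, 15.8 UPM in H6 and 929 UPM in H7, and was 377 UPM, 103 UPM and 176 UPM in S1, S2 and S7.

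Libraries with the same mouse ID in the labels also differed. In the lymph node of H4, S100a8 was listed at 0 under the suffix 2CIA and was 949 UPM under the suffix CIA. In S7 it was 730 UPM and 69.5 UPM in the same order. CIA minus healthy was 1.26 (SE 0.99) for S100a8 and 1.32 (SE 1.06) for S100a9 on the log2 scale. Without H3 both differences were 0.31, and without H7 they were 2.32 and 2.53. For S100a9 the plain means went the other way, with 277 ± 441 UPM (SD, n = 4) in health and 219 ± 142 UPM (SD, n = 3) in CIA. From the 2CIA libraries alone the differences were 5.23 and 4.62. In these, S100a8 was 1460 UPM in S1, 301 UPM in S2 and 730 UPM in S7, against 28.0 UPM in H3 and 0 in H4. S100a9 was 377 UPM, 103 UPM and 288 UPM in the same CIA libraries and listed at 0 in both healthy ones. Each CIA library of that suffix thus lay above each healthy one for both genes. Neutrophil markers were between 0 and 166 UPM in all lymph node libraries. Hemoglobin rows took 14.6% of the units in the lymph node of H7 and 3.57% in the CIA-suffix library of H4. These were the healthy lymph node libraries highest in S100a8. The other lymph node libraries held 0.43% or less, among them that of S1, with 1460 UPM of S100a8. The part of blood cells in these levels was not tested.

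S100a8 exceeded S100a9 in 26 of the 27 libraries in which S100a9 was above 0, the exception being the blood of H3, with 0.774 units of S100a8 for each unit of S100a9. The ratio was 2.18 to 2.94 in the CIA spleen and in the blood of S2, S6 and S7. It was 2.51 in CIA thymus, 2.59 and 3.42 in the CIA joint libraries and 2.53 to 3.95 in CIA lymph node. In CIA muscle, lung and skin it was 4.41, 5.46 and 10. Because a smoothed unit is not a molecule count, no interval was attached to these ratios.

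S100a4, S100a6, S100a10 and S100a11 spanned a narrower range. S100a6 was highest in the healthy joint, the CIA lung and the CIA joint, followed by the CIA muscle and both skin libraries. It was 3019 UPM in the healthy joint, and 2675 UPM and 2337 UPM in the CIA joint libraries. In lung it was 1489 UPM in health and 2970 UPM in CIA, and in skin it was 1703 UPM and 1537 UPM. Healthy and CIA libraries were close in joint and skin and further apart in lung. In muscle it was 725 UPM in health and 2019 UPM in CIA, the opposite direction to S100a8 in the same libraries. In spleen it was 251 UPM and 747 UPM, and in thymus 38.8 UPM and 29.9 UPM, the lowest of all organs.

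Blood set S100a6 apart from the other 3. It was 340 UPM in H3, 92.9 UPM in H4, 240 UPM in H6 and 98.9 UPM in H7, against 1577 UPM in S2, 947 UPM in S6 and 1164 UPM in S7. The groups did not overlap, and S6, which barely passed the healthy mice in S100a8, lay well above them in S100a6. S6 also had the highest monocyte marker sum in blood, 3505 UPM, and T cell markers were 248 to 768 UPM in the healthy and 92.2 to 211 UPM in the CIA blood libraries. Their part in the S100a6 levels was not tested. CIA minus healthy was 2.32 (SE 0.61) on the log2 scale, and 1.80 to 2.84 when any 1 mouse was left out. All 6 members passed the level filter in blood and in lymph node. In blood S100a8 and S100a6 were the 2 members with every CIA mouse above every healthy mouse, as were 4.61% of the genes fitted there, and none had the reverse, as did 5.74%. In lymph node no member was separated in either direction, as were 2.79% of genes upward and 2.57% downward. Since the genes were picked for their levels, nothing is read from these counts. In lymph node S100a6 was 159 UPM, 55.5 UPM, 138 UPM and 156 UPM in H3, H4, H6 and H7 and 135 UPM, 78.6 UPM and 96.3 UPM in S1, S2 and S7, with overlap throughout.

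S100a4 was highest in joint and lung. It was 845 UPM in the healthy joint and 771 UPM and 896 UPM in the CIA joint libraries. In lung it was 404 UPM in health and 872 UPM in CIA, and in spleen 53.4 UPM and 190 UPM. The CIA libraries were thus higher in lung and spleen and on both sides of the healthy value in the joint. Muscle held 246 UPM and 217 UPM, skin 206 UPM and 166 UPM, and thymus 12.05 UPM and 19.6 UPM. Healthy blood held 133 UPM in H3, 22.1 UPM in H4, 27.6 UPM in H6 and 29.3 UPM in H7, and CIA blood 521 UPM in S2, 305 UPM in S6 and 69.1 UPM in S7. S2 and S6 exceeded every healthy mouse and S7 did not exceed H3, with a log2 difference of 1.85 (SE 0.83). The difference was 0.93 without S2, 2.74 without S7 and 0.88 from the 2CIA libraries alone. In lymph node S100a4 was 88.3 UPM, 69.8 UPM, 76.6 UPM and 49.4 UPM in H3, H4, H6 and H7. It was 17.1 UPM in S1, listed at 0 in S2 and 75.2 UPM in S7, so S1 and S2 lay under every healthy mouse. The log2 difference in lymph node was -1.45 (SE 0.57), and -0.68 without S2 and -2.27 without S7.

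S100a10, the annexin A2 partner, was the most even of the genes. Its 30 libraries lay between 170 and 2405 UPM, and none was at 0. It was highest in healthy skin, at 2405 UPM against 1381 UPM in CIA skin. The healthy joint held 1995 UPM and the CIA joint libraries 1215 UPM and 2164 UPM. The CIA joint libraries thus lay on both sides of the healthy one. Lung held 1801 UPM in health and 2116 UPM in CIA, muscle 832 UPM and 1361 UPM, spleen 419 UPM and 546 UPM, and thymus 284 UPM and 216 UPM. These 4 organs stayed within a 2-fold difference. Blood of the healthy mice held 267 to 620 UPM and of the CIA mice 384 to 706 UPM. The log2 difference in blood was -0.18 (SE 0.61), and it was 0.28 when libraries were scaled by their total alone, so no direction is given. In lymph node S100a10 was 496 UPM, 327 UPM, 557 UPM and 291 UPM in the healthy mice and 228 UPM, 252 UPM and 336 UPM in S1, S2 and S7. The log2 difference there was -0.53 (SE 0.30), with S1 and S2 under every healthy mouse.

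S100a11 was highest in CIA lung and CIA joint. Lung held 664 UPM in health and 943 UPM in CIA, and the joint 419 UPM in health and 914 UPM and 326 UPM in the CIA libraries, one above and the other under the healthy value. Muscle went the same way as for S100a8, with 750 UPM in health and 213 UPM in CIA. Skin held 655 UPM and 321 UPM, spleen 108 UPM and 407 UPM, and thymus 25.4 UPM and 61.7 UPM. The gene was thus lower in CIA in muscle and skin and higher in spleen and thymus. Healthy blood held 118 to 288 UPM and CIA blood 217 to 628 UPM, with a log2 difference of 0.59 (SE 0.65), which was -0.07 without S2, 1.35 without S6 and 1.38 from the 2CIA libraries alone. In lymph node the groups overlapped at 55.1 to 131 UPM and 62.6 to 97.5 UPM, with a log2 difference of -0.15 (SE 0.34). A pseudogene row, S100a11-ps on chromosome 12, held at most 10.4 UPM and was at 0 in 28 libraries, and reads shared with it could not be separated.

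**Figure D2:**
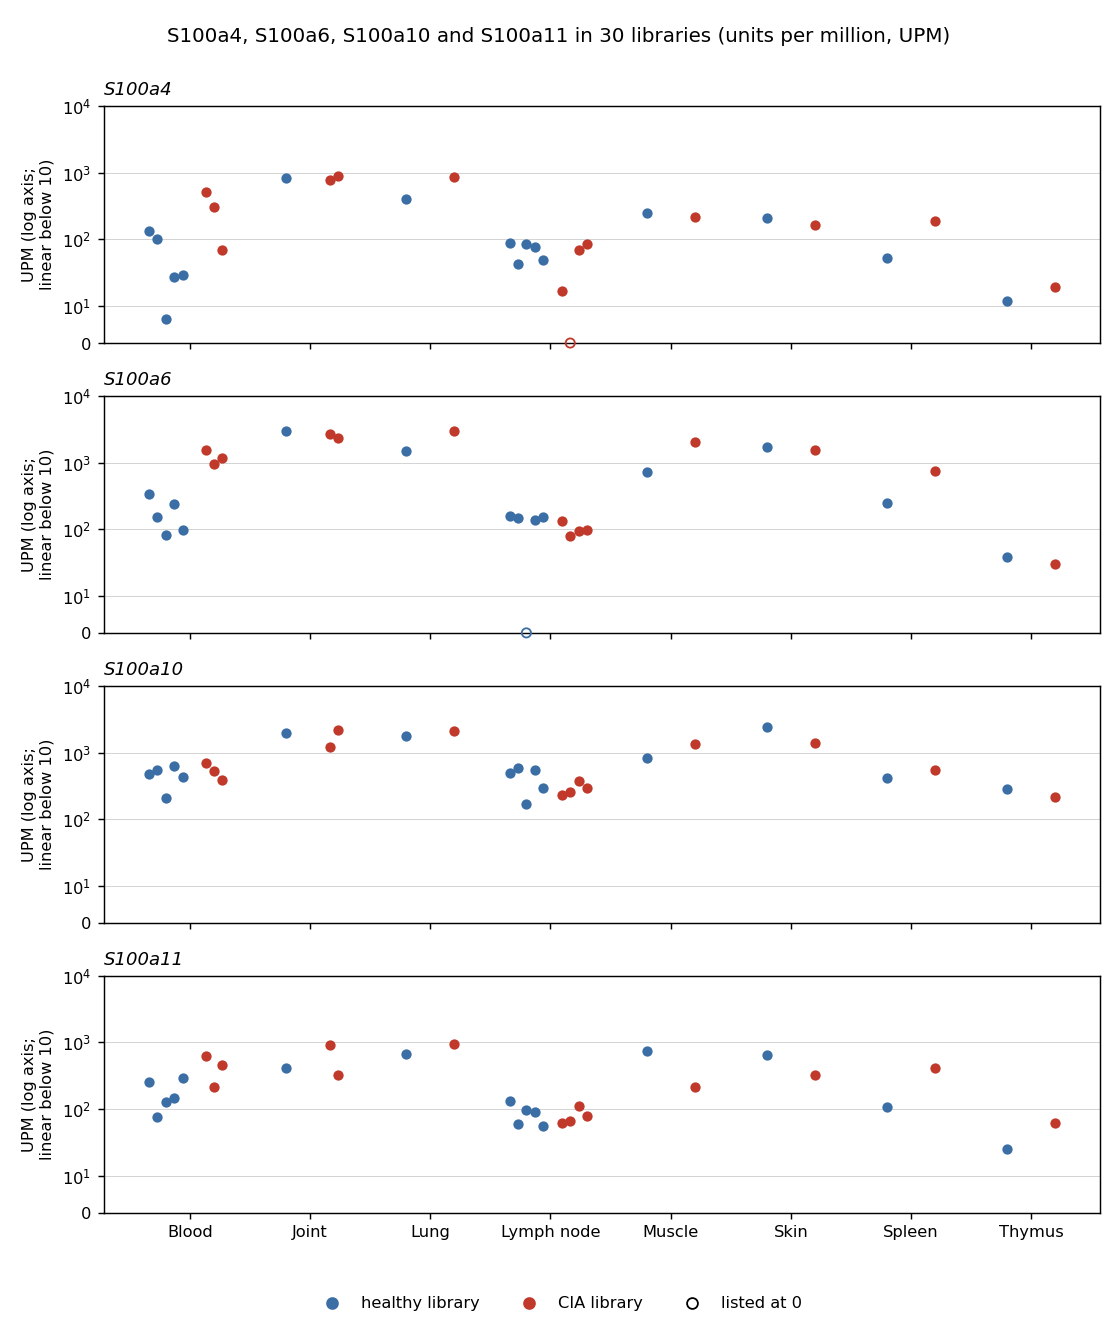
S100a4, S100a6, S100a10 and S100a11 in UPM (log axis, linear below 10) for each of the 30 libraries, by organ, healthy in blue and CIA in red, with open circles for a value of 0. In blood the S100a6 points of the CIA mice, 947 to 1577 UPM, lie above all healthy points, while S100a10 shows no such gap in any organ with several mice.

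**Figure D3:**
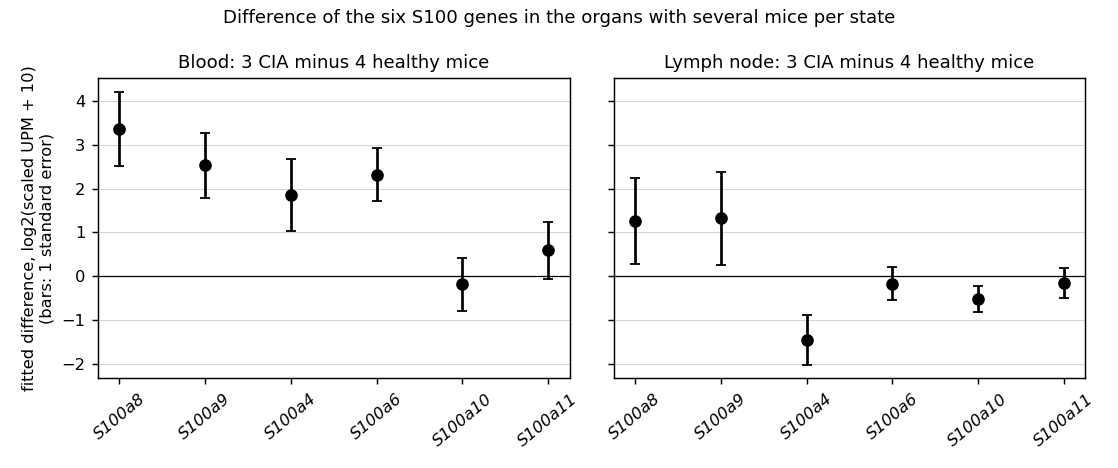
CIA minus healthy difference of each gene on the log2 scale of the fit (scaled UPM plus 10) in blood and lymph node, 4 healthy and 3 CIA mice each. Points are fitted differences and bars 1 standard error. In blood S100a8 (3.36), S100a9 (2.53) and S100a6 (2.32) are the 3 highest of the genes, and in lymph node S100a4 (-1.45) is the lowest.

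In the organs with 1 mouse per state, CIA was at least 2-fold above health in 2 of the 6 members in joint, 3 in lung, 1 in muscle, 1 in skin, 5 in spleen and 3 in thymus. The shares of all genes past the same fold were 7.73%, 27.2%, 41.2%, 15.8%, 16.4% and 13.6% in the same order. At least 2-fold below were 3 members in muscle and 1 in skin, against 20.3% and 16.7% of the genes that passed the filter. No member was that far below in joint, lung, spleen or thymus, against 28.1%, 24.5%, 27.8% and 10.3%. In the spleen S100a10 was the member that stayed inside the fold, at 1.30. With 1 mouse on each side these ratios have no replicate check.

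Ordered by their level over the 16 pools of organ and state, S100a8 and S100a9 began with CIA joint, CIA spleen and healthy muscle and ended with healthy skin. S100a6 began with healthy joint, CIA lung and CIA joint and ended with thymus. S100a10 began with healthy skin and ended with CIA lymph node and CIA thymus. Pools with 1 mouse have no spread, and healthy and CIA lymph node could not be ordered for any of the 6 genes because their mice overlapped.

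Over these 16 pools the gene most like S100a8 was S100a9, with a Pearson correlation of 0.987 on log2(UPM + 10) among 5744 genes, followed by Wfdc21, Ngp, Trem3 and Retnlg at 0.931 to 0.896. Ngp is a neutrophil granule protein and Trem3 a receptor of myeloid cells. For S100a9 the same genes followed S100a8. S100a4 was most like S100a6 (0.945), then Rnh1, Vim, Metrnl and Gabarap, and Vim encodes the filament protein vimentin. S100a6 was most like Lgals3, galectin-3, at 0.952, then App, S100a4, Gabarap and Ifitm3. S100a10 was most like the tetraspanin gene Cd9 (0.965), then Pdlim5, Ahnak, the pseudogene Cd9-ps and Mt1. S100a11 was most like the chemokine gene Cxcl2 (0.926), then Lgals3, Rnh1, S100a4 and Anxa1. The 6 genes fell into a pair and a set of 4. S100a4, S100a6, S100a10 and S100a11 had correlations of 0.813 to 0.945 with one another, whereas S100a8 had 0.078 with S100a10 and 0.519 with S100a4. The pools share mice, libraries and depth, and the values are a description over organs.

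Lists of partner genes were tested in blood and lymph node with limma on scaled log2 values, with the mouse as replicate and Benjamini-Hochberg adjustment over all genes fitted. Of 52 listed genes 49 had a row and 28 passed the level filter in blood, and 1 of these rose. Among all genes fitted in blood 0.128%, 6 of 4704, passed, all of them in the CIA direction. With an unadjusted p below 0.05 stood 8 of the 28, with 7 higher and 1 lower, against 9.82% of all genes, 1.57% higher and 8.25% lower. Of the 28, 10 had a healthy mean under the filter of 25 UPM and passed it through the CIA mice, and 2 had a CIA mean under it, so nothing is read from these counts. The gene was Retnlg, a resistin-like protein of neutrophils, at 0 UPM in H3, 30.8 UPM in H4, 47.8 UPM in H6 and 86.6 UPM in H7, and 1447 UPM in S2, 271 UPM in S6 and 2364 UPM in S7. The groups did not overlap, and each of the 3 CIA mice exceeded H7. The fit put Retnlg 4.09 ± 0.78 (SE) higher on the log2 scale with an adjusted p of 0.00314 from limma, and the adjusted p was 0.0748 without H3, 0.127 without S2 and 0.175 without S7. Over 16 alternative settings it ran from 3.34e-05 to 0.585, and 10 of them kept the call.

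Of 16 neutrophil granule and surface genes 12 were fitted in blood, and limma called Retnlg alone. Of the 12, 9 had a healthy mean under 25 UPM and passed the filter through the CIA mice, for example Mmp8, a neutrophil collagenase, with means of 0.26 UPM in health and 209 UPM in CIA. Their direction was thus largely fixed by the filter: all 12 had a positive log2 difference (median 1.92), against 1272 of 4704 genes and a median of -0.55 over all genes, and nothing is read from it. The list is of the same cell type as S100a8 and was fixed with earlier results known. Of 4 genes of S100 receptors and signaling limma called none (1 at an unadjusted p under 0.05, median log2 difference 0.29). It also called none of 4 myeloid transcription factors (0 unadjusted, median 0.29) and not S100a13, the 1 other S100 gene fitted, at -0.12. Of 7 protein partners of S100 genes none was called, with 2 at an unadjusted p under 0.05 and a median of 0.24. The nearest was Anxa1, the annexin bound by S100a11, which is named here after its values were seen. Anxa1 was 21.9 to 76.2 UPM in the healthy mice and 630 UPM, 378 UPM and 718 UPM in S2, S6 and S7, 3.04 ± 0.72 (SE) higher on the log2 scale with an adjusted p of 0.0519 from limma. Over 16 alternative settings its adjusted p ran from 0.0153 to 0.585, and 7 of them called it.

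The listed genes with the smallest p among those lower in CIA blood were Cacybp, Anxa6 and Bsg. Cacybp encodes the calcyclin-binding protein, a partner of S100a6, and was 69.7 to 202 UPM in the healthy mice and 61.5 UPM, 0 UPM and 47.7 UPM in S2, S6 and S7. The fit gave -2.17 ± 0.85 (SE) on the log2 scale with an adjusted p of 0.431 from limma. The median over all genes fitted in blood was -0.55. The Cacybp difference was -1.22 without S6 and -2.96 without S2. Bsg, the receptor basigin to which S100a9 binds, was 11.2 to 124 UPM in health and 0 to 41.0 UPM in CIA, and annexin gene Anxa6 was 17.0 to 61.8 UPM and 0 to 45.3 UPM. Neither passed, with limma adjusted p-values of 0.664 and 0.643, and from the 2CIA libraries alone their log2 differences went from -1.43 and -1.48 to -0.62 and -0.02.

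In lymph node 9 of the 52 listed genes were fitted and limma called none, against 0.0198% of 5060 genes. Lower in CIA at an unadjusted p below 0.05 were 2 of the 9 and higher none, against 2.09% and 2.15% of all genes and 4.25% in either direction. By list, the fitted genes were 4 protein partners (median log2 difference -0.48), 2 transcription factors (0.29) and 1 each of the receptors (-1.08), the neutrophil genes (0.50) and the other S100 genes (-0.21). The lowest was Ahnak, a large scaffold that S100a10 and annexin A2 bind. Ahnak was 156 UPM, 90.9 UPM, 185 UPM and 131 UPM in H3, H4, H6 and H7 and 49.9 UPM, 29.4 UPM and 59.8 UPM in S1, S2 and S7, without overlap. The fit gave -1.38 ± 0.35 (SE) on the log2 scale with an adjusted p of 0.905 from limma, and -0.33 from the 2CIA libraries alone. Bsg was 71.8 to 94.0 UPM in health and 17.5 to 52.9 UPM in CIA (log2 difference -1.08, SE 0.37, limma adjusted p = 0.962), again without overlap. Anxa6 (-0.69), Cybb (0.50), Cebpb (0.57) and Cacybp (0.40) made up the other named genes there, with limma adjusted p-values of 0.962.

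S100a8 and S100a9 were carried very unevenly by barcodes. Together they made up at least 1% of the units in 1672 of 8282 barcodes (20.2%), which held 95.9% of all their units. At 5% or more stood 656 barcodes (7.92%) with 86.8% of the units, and at 20% or more 398 barcodes. The highest barcode, in the CIA spleen, gave 49.4% of its units to the pair, and the highest in the CIA joint 47.0%. In a library sum, more such barcodes and more RNA in each cannot be told apart.

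The 656 barcodes at 5% or more were unequally spread. They made up 43.7% of the barcodes of the CIA joint library with the suffix 2CIA, 26.5% of the CIA spleen, 23.1% of the blood of S2, 22.8% of healthy muscle, 22.2% of CIA muscle and 20.6% of the blood of S7. The other CIA joint library held 15.7%, the healthy joint 15.5%, the healthy spleen 5.39%, the CIA lung 3.85% and the blood of H7 and the CIA-suffix blood library of H4 1.61% and 1.40%. The other blood library of H4, the blood of H3, H6 and S6, the healthy lung, both thymus and both skin libraries and all lymph node libraries but that of S1 held none. In the CIA muscle the 12 such barcodes peaked at 7.85%, whereas in healthy muscle the 96 reached 38.6%.

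Barcodes below that limit were not free of the pair. In the CIA joint the lowest barcode held 0.871% and 1.22% of its units in the pair in the libraries with the suffixes 2CIA and CIA, in the CIA spleen 0.675%, in the blood of S7 0.602% and of S2 0.346%. In healthy blood, healthy spleen and lung the lowest barcodes held 0.113% or less. At the 1% limit all 70 barcodes of the CIA joint library with the suffix CIA counted as carriers for this reason, and the healthy joint began at 0.367% and healthy muscle at 0.239%. The cause of these values in the lowest barcodes was not tested.

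**Figure D4:**
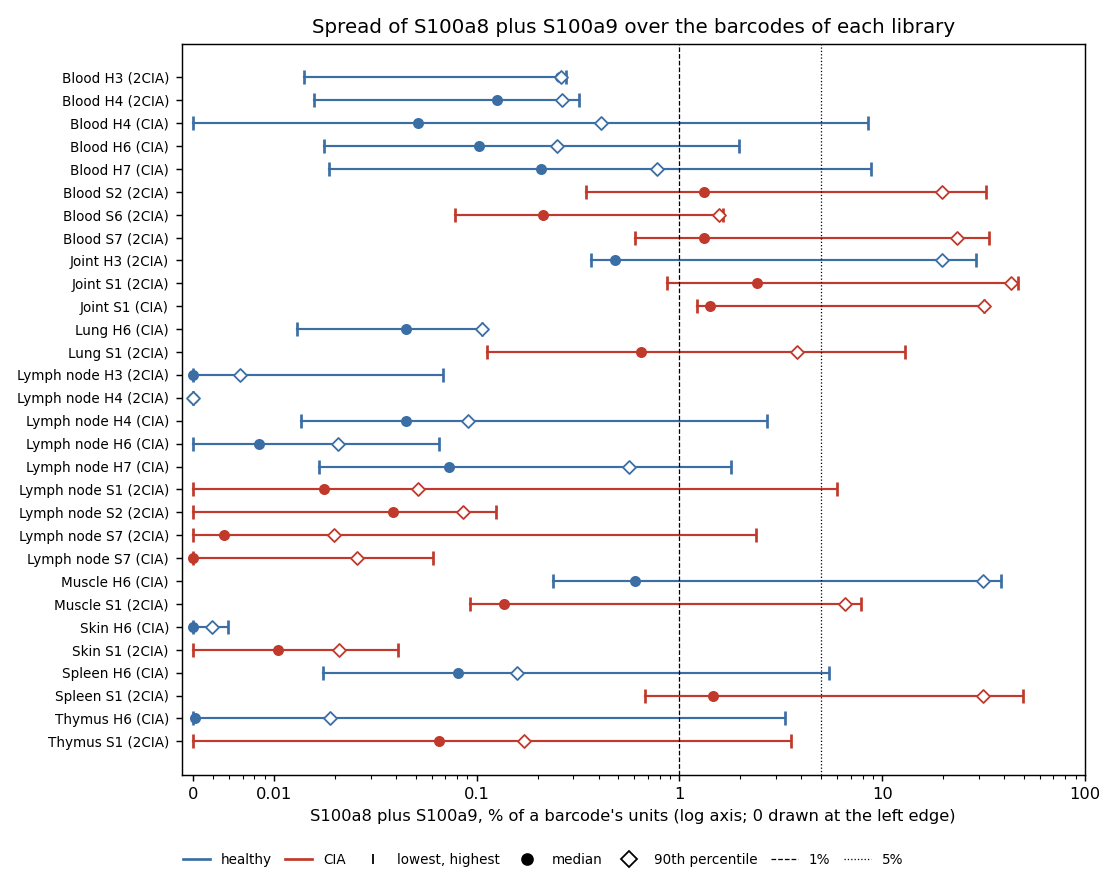
Share of S100a8 plus S100a9 in the units of a barcode (%, log axis, 0 drawn at the left edge), one line per library from its lowest to its highest barcode, healthy in blue and CIA in red. Points are medians, diamonds 90th percentiles, and the broken and dotted lines mark 1% and 5%. In both states of the joint, in CIA spleen and in the blood of S2 and S7 the whole line is shifted to the right and starts at 0.346% or more, while most lymph node and skin lines start at 0.

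The barcodes at 5% or more also carried neutrophil markers. All 656 had a marker above 0, with a median sum of 46350 UPM against 0 in the other barcodes. S100a6 had a median of 1818 UPM in them and 87.1 UPM in the others, and S100a11 had 1304 UPM and 112 UPM. S100a10 went the other way, with 168 UPM and 379 UPM, and the median of S100a4 was 0 in both. These medians pool all libraries, and 265 of the 656 barcodes came from the CIA joint library with the suffix 2CIA. Within that library S100a6 was 2979 UPM in neutrophil-marker barcodes, against 3158 UPM in unclassed, 3554 UPM in macrophage-marker and 4210 UPM in fibroblast-marker ones and 1012 to 2561 UPM in the other 6 classes. The erythroid marker sum was also higher in them, 14382 UPM against 2147 UPM.

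Barcodes were then set into classes by markers that include no S100 gene: 5848 of 8282 fell into 12 classes, 29.4% into none, and 2374 lay near a limit. In the 357 neutrophil-marker barcodes the median library level, over 6 libraries, was 238460 UPM for S100a8 (range 162765 to 301032 UPM) and 92836 UPM for S100a9. These barcodes held 69.9% of all S100a8 and S100a9 units, and each of them was among the 656. Another 113 of the 656 had no class and 186 were in other classes. All 30 such barcodes of the healthy joint and 77 of 96 of healthy muscle were of the neutrophil-marker class. So were 11 of 11 and 150 of 265 in the CIA joint libraries with the suffixes CIA and 2CIA. It held 16 of 40 in the blood of S2 and 73 of 141 in the CIA spleen, where 45 were of the B-marker class. Outside it lay the 9 of healthy spleen, the 15 and 5 of the blood of H7 and H4, the 7 of CIA lung and the 5 of the lymph node of S1. The 20 of the blood of S7 had no class and a median neutrophil marker sum of 11098 UPM, and the 12 of the CIA muscle were all of the smooth muscle and pericyte class, with a median neutrophil marker sum of 6383 UPM. Barcodes rich in S100a8 and S100a9 outside the neutrophil-marker class thus also carried neutrophil genes in the blood of S7 and in CIA muscle. The 20 barcodes of S7 held 4 distinct values of the pair's share and the 12 of CIA muscle held 3. They are sums over neighbors and cannot be counted as separate cells. S100a4 was at 38.5 UPM and S100a10 at 147 UPM in the neutrophil-marker barcodes, the lowest S100a10 among the 9 classes plotted, whereas S100a6 was at 1474 UPM and S100a11 at 1241 UPM, the highest S100a11 among them.

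Monocyte-marker barcodes, 365 in all, held all 6 genes. S100a8 was at 13826 UPM (5137 to 31602 UPM over 6 libraries), S100a9 at 3166 UPM, S100a4 at 1074 UPM, S100a6 at 1737 UPM, S100a10 at 1757 UPM and S100a11 at 741 UPM. Their S100a4 was the highest of the classes plotted and did not overlap that of neutrophil-marker barcodes, whose highest library was 95.7 UPM against a lowest of 513 UPM. Macrophage-marker barcodes held 5426 UPM of S100a8 over 5 libraries, but from 274 UPM in healthy lung to 21081 UPM in the CIA joint.

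Barcodes with markers of tissue cells held S100a6 and S100a10 as well as S100a8. Fibroblast-marker barcodes held 3864 UPM of S100a6, the highest of the classes plotted, 1696 UPM of S100a10 and 2846 UPM of S100a8. Their S100a8 ran from 93.1 UPM in CIA skin to 11583 UPM in the CIA joint library with the suffix CIA. Keratinocyte-marker barcodes held 1669 UPM of S100a6, 1727 UPM of S100a10 and 489 UPM of S100a11. In skin those barcodes held 16.3 UPM of S100a8 in health and 105 UPM in CIA, and in the CIA joint 26138 UPM. Endothelial-marker barcodes held 3668 UPM of S100a8, 1565 UPM of S100a9, 1557 UPM of S100a6 and 1249 UPM of S100a10. In smooth muscle and pericyte barcodes S100a8 ran from 3148 UPM in the healthy joint to 53636 UPM in the CIA muscle, and in cartilage and bone barcodes it was 3606 UPM in the healthy and 27825 UPM in the CIA joint.

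T-marker and B-marker barcodes held little of S100a4, S100a6 and S100a11, at medians of 27.7 to 147 UPM, and S100a10 at 388 UPM and 367 UPM. Their S100a8 differed widely between libraries. In B-marker barcodes it was 5.90 UPM in the lymph node of H3, 1038 UPM in the blood of H6, 10337 UPM in the blood of S7 and 22302 UPM in the CIA spleen, whose library level was 60461 UPM. It did not always follow the library level: it was 4089 UPM in the CIA-suffix lymph node library of H4, whose level was 949 UPM, and 565 UPM in the lymph node of H7, whose level was 2140 UPM. In T-marker barcodes it was 48.7 UPM in healthy thymus, 1167 UPM in CIA thymus and 4068 UPM in healthy muscle. S100a10 in B-marker barcodes of the lymph node of H3, the blood of H6 and S7 and the CIA spleen was 360 UPM, 631 UPM, 266 UPM and 397 UPM.

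**Figure D5:**
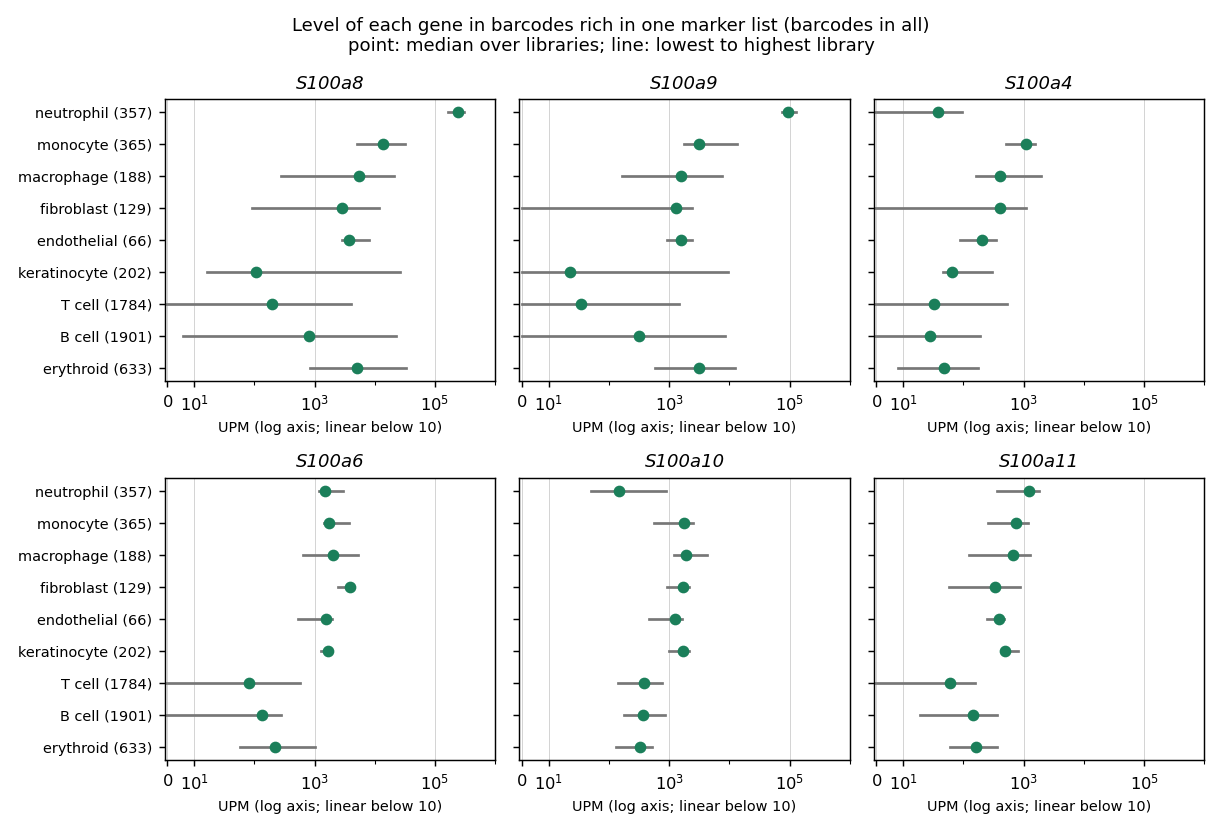
Level of each gene (UPM, log axis, linear below 10) in barcodes rich in 1 marker list, with the number of barcodes in brackets. Points are medians over libraries with at least 10 such barcodes and lines run from the lowest to the highest library. S100a8 and S100a9 peak in neutrophil-marker barcodes at 238460 UPM and 92836 UPM, S100a8 runs from 5.90 to 22302 UPM in B-marker barcodes, and S100a10 is lowest in neutrophil-marker barcodes at 147 UPM.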

How the data were processed

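Per the labels and the study's methods, single cells of cryopreserved organs were captured by Seq-Well, and reads were demultiplexed with bcl2fastq, handled with Picard and aligned with STAR to GRCm38. The submitters' notes name other builds, so no read-level coordinate was used. The authors kept barcodes that passed their quality limits and smoothed each sample over 12 nearest neighbors, and the deposited matrix holds that smoothed signal as whole-number sums. No count model or counting interval applies to it, and the depth of single barcodes is not known from it. Of 23013 Entrez rows 21404 received a symbol from RefSeq, and the others held 3.39% of units.

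From this signal, units were summed per library or, for fits, per mouse and organ, and divided by the total to give UPM. Replicates are mice, by the mouse ID in the labels. The number of libraries behind a mouse varied, and spread between mice includes technical spread. For limma 3.58.1 in R 4.3.3, totals were scaled by a trimmed mean of log ratios (30% and 5% trimmed), genes with a mean under 25 UPM were dropped, and log2(value + 10) was fitted with a mean-variance trend, two-sided, calls at an adjusted p under 0.05. The pseudocount makes fold changes of low genes too small. The steps were tested on simulated data.

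The members and lists were chosen with earlier results of these data known. Named genes were the 6 members, each listed gene called and otherwise, in each direction, up to 3 with the smallest p, plus the 5 genes most correlated with each member. Marker classes need a marker sum of at least 25% of the 99th percentile of that class and 1.5 times the next class, a rule set after the values were seen. No doublets were removed.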

Additional observations from a re-analysis of the deposited data

Results flagged for a closer look

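In healthy blood S100a4 of mouse H3, 133 UPM, stood apart from the other 3 mice, with a gap of 0.865 of the range of the group. In healthy lymph node S100a6 of mouse H4, 55.5 UPM, was the low value, with a gap of 0.861 of the range, and its library with the suffix CIA was listed at 0 while that with the suffix 2CIA held 146 UPM. These were 2 of 12 groups of 4 mice examined, and chance sets about 1 group in 20 apart in this way.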

How the results depend on the processing

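Of 479 values recomputed under an alternative setting 43 moved past a limit (the residual SD for log2 differences of the members, 1.5 times for counts and ratios, the exact 95% binomial interval for shares of barcodes, which takes barcodes as independent although smoothed ones are not and is too narrow), 6 tested values lost the call (all Retnlg in blood) and 1 tested value reversed. The other 429 stayed within these limits, which lets small differences of the members change sign and does not bound the size of uncalled values. The count of listed genes called in blood, 1, became 2 with totals alone, 2 with the median of ratios, 2 from the 2CIA libraries alone, 0 with a pseudocount of 1 and 0 without the trend. Leaving out single mice gave 0 to 4, with 0 without H3, S2 or S7 and 4 without S6. Cacybp in lymph node reversed to -0.11 (limma adjusted p = 0.956) in the 2CIA libraries alone, where S100a8 and S100a9 differed by 5.23 and 4.62, and S100a4 there was -2.63 with a pseudocount of 1. S100a10 in blood changed sign under 4 of 13 alternatives, S100a11 in blood and S100a6 in lymph node under 1. With distinct profiles counted once, CIA to healthy ratios of S100a8 and S100a9 were 5.48 and 3.98 in joint, 11.3 and 14.3 in spleen and 7.17 and 3.69 in thymus, and S100a4 in muscle was 1.53. From the CIA-suffix joint library alone the ratios were 0.996 for S100a9, 1.08 for S100a10 and 0.779 for S100a11. The share of barcodes at 1%, 20.2% in all, 4.19% in healthy and 56.9% in CIA blood, 1.67% in healthy and 1.97% in CIA lymph node, was 28.0%, 15.1%, 77.1% and 3.78% at 0.5% (CIA node within the limits), 10.7%, 2.501%, 34.0% and 0.704% at 2%, and 7.92%, 1.16%, 18.1%, 0 and 0.365% at 5%, a limit chosen after seeing the data. With distinct profiles once it was 16.1%, 3.10%, 65.1% and 0.778%. All these shares pool barcodes over mice, which differed widely. At 1% the share in CIA blood was 59.0% in S2, 17.7% in S6 and 78.4% in S7. Healthy blood libraries ran from 0 to 6.00%, the highest being H7 with 934 barcodes. Lymph node libraries ran from 0 to 5.23% in health and from 0 to 4.34% in CIA. The causes were not tested. Libraries of 27 to 97 barcodes limit the blood of H3, S6 and S7.

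With a replicate block by mouse number, 0 listed genes were called in blood, and Retnlg had a log2 difference of 2.53 (limma adjusted p = 0.163). The numbers 6 and 7 occur in both states but name different mice, and the deviations from the group means correlated at 0.244 for H6 with S6 and -0.141 for H7 with S7, so the block is a shared number only. No paired analysis was possible in lymph node because 1 number is shared.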
